A study of Mus musculus with 2 samples.

Results

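The genes described here are hosts of snoRNAs that are known as noncoding, though 1 of them, *Snhg11*, is typed as protein coding in the annotation used. They were read over their exons, with reads on the snoRNAs left out, since some of the snoRNA genes lie in introns and others in annotated exons. Of the 7 named genes (*Snhg3*, *Snhg4*, *Snhg5*, *Snhg6*, *Snhg7*, *Snhg8* and *Snhg11*), 5 were placed by GENCODE M1, an annotation of 37310 genes on the mm9 mouse genome, while *Snhg6* and *Snhg8* have no gene of that name in it. The data are 1 strand-specific library of non-polyadenylated (NPA) RNA from R1 mouse embryonic stem cells (ESCs) at passage 18, grown on mitomycin-treated mouse embryonic fibroblasts, and 1 from neural progenitor cells (NPCs) made from these ESCs. NPC RNA was taken at day 7 of differentiation, of which the first 4 days were spent as embryoid bodies. With 1 library per cell type there was no test between cell types, and each interval below is a 95% interval of counting error that compares these libraries alone. The reads carry no molecular identifiers, so copies made by PCR are counted as reads. In bulk RNA, fewer cells that express a gene and less of its RNA per cell cannot be told apart.

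A snoRNA host gene is transcribed by RNA polymerase II, and its introns are cut out, opened and trimmed at both ends until the snoRNA, held by its proteins, is left. Box C/D snoRNAs guide methylation of the ribose in rRNA, and box H/ACA snoRNAs guide the change of uridine to pseudouridine, while a few help to cut the rRNA precursor. The spliced exons of such hosts carry a poly(A) tail and many are removed by nonsense-mediated decay, whereas the snoRNAs carry no tail. A library from which poly(A) RNA was removed thus keeps the snoRNAs and is depleted of tailed exon RNA. The exon reads here come from what was left of the host RNA, and are no measure of its full level. Their source was not tested. With this limit, the exon reads were set against the snoRNA reads of the same gene.

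For the hosts other than *Snhg4*, the snoRNA with the most ESC reads is shown as in mm9, on the strand of the host and from 5′ to 3′, since its ends and copies bear on the counts. Capitals mark box C (TGATGA) and box D (CTGA) in C/D snoRNAs and the ACA near the 3′ end in H/ACA snoRNAs. *Snhg5* holds a pair of SNORD50 genes, C/D guides for the large subunit rRNA, both on the minus strand and first to second from the host start (chr9:88416635-88416706 and chr9:88416367-88416438).
SNORD50 copy 1: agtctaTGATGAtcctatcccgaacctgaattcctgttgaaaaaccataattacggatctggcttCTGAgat
SNORD50 copy 2: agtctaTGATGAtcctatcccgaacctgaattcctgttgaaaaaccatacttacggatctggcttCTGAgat
The copies differ by A50C alone, counted from 1 at the 5′ end, and 71 of 72 positions are the same.

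*Snora17* in *Snhg7* (chr2:26494710-26494841, minus strand), an H/ACA snoRNA, is shown because it had nearly all the snoRNA reads of its host.
Snora17: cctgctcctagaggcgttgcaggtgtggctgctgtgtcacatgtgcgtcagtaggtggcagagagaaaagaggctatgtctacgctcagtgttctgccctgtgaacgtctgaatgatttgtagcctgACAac
The leading snoRNA of *Snhg11* is a SNORA71 gene (chr2:158203958-158204090, plus strand), of the H/ACA class that guides small subunit rRNA.
SNORA71, first gene: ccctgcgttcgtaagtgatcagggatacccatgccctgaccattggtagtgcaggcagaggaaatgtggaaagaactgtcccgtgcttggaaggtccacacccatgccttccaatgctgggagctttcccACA
*Snora73a* in *Snhg3* (chr4:131908690-131908894, minus strand) belongs to the H/ACA snoRNAs that act in cutting the rRNA precursor, and is shown because its reads reached just its last 2 bases.
Snora73a: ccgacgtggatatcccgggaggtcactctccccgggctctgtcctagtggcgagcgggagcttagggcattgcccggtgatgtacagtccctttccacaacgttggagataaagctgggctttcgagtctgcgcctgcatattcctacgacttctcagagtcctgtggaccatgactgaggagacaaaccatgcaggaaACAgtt

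For the hosts that GENCODE M1 does not name, the snoRNA genes that lie between the same coding neighbours as in RefSeq were taken. Between 6030422M02Rik and Gm10567, where RefSeq has *Snhg6* with *Snord87*, the annotation has a C/D snoRNA gene of 87 nt (74 nt for *Snord87* in RefSeq), AC102570.1 (ENSMUSG00000093178.1, chr1:9932544-9932630, minus strand).
AC102570.1: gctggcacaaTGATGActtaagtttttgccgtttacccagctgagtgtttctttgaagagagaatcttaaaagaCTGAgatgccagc
Between *Prss12* and *Ndst3*, where RefSeq has *Snhg8* with *Snora24*, it has an H/ACA snoRNA gene of the same 130 nt, AC124005.1 (ENSMUSG00000092730.1, chr3:123210855-123210984, minus strand).
AC124005.1: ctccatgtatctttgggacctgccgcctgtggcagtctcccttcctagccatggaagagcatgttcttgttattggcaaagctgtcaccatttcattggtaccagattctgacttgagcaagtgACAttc

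The libraries hold 4271306 reads in ESCs and 4399729 in NPCs, so that 1 read is worth 0.234 reads per 1000000 (RPM) in ESCs and 0.227 in NPCs. Any snoRNA gene was hit by 22.0% of ESC reads and 9.90% of NPC reads. Of the markers of pluripotency, 7 of 8 were more than 2-fold lower in the NPC library. Of 7 annotated neural progenitor genes, 3 had at least 10 reads in both libraries together and 1 of them (*Pax6*, 1 and 12 reads) was more than 2-fold higher in NPCs, *Vim* and *Nes* being at log2 ratios of 0.55 and 0.83 (0.39 to 1.29 for *Nes*). *Sox3* had 0 ESC reads and 5 NPC reads, and *Fabp7* 0 and 2. All 8 extraembryonic endoderm genes were more than 2-fold higher in NPCs, with a summed level of 326 RPM in ESCs and 7758 RPM in NPCs. The 6 fibroblast genes summed to 45 RPM in ESCs and 61.4 RPM in NPCs, with none at 0. *Thy1* had 79 and 12 reads, and without it the other 5, all with ratios above 0, were 2.22 times as high in NPCs (1.77 to 2.79). Leaving out *Thy1* was chosen after seeing the data. *Col1a2* had 51 and 165 of these reads (log2 ratio 1.63), and the others were at 0.21 to 0.76. The part of these other cells in the host counts was not tested.

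Over exons, 0 of the 5 placed hosts were more than 2-fold apart between the libraries, whereas of all genes 25.1% were more than 2-fold higher and 12.0% more than 2-fold lower in NPCs. Under median-of-ratios scaling, 1 of the 5 was more than 2-fold lower (*Snhg11*, -1.13 on the log2 scale), beside 15.6% of all genes above and 18.2% below. By the position of the 5′ end, a setting not run over all genes, it was also 1 of the 5 (*Snhg11*, -1.46). The 5 placed hosts together were at 97.2 RPM in ESCs (415 exon reads, 88.0 to 107 RPM) and 90.2 RPM in NPCs (397 exon reads, 81.6 to 99.6 RPM). On the log2 scale the NPC level over the ESC level was -0.11 (-0.31 to 0.10), and such values are called log2 ratios below. The snoRNAs inside them had 18687 reads in ESCs and 7873 in NPCs, or 4375 RPM (4312 to 4438) and 1789 RPM (1750 to 1829), a log2 ratio of -1.29 (-1.33 to -1.25). The snoRNA ratio divided by the exon ratio, which does not depend on how the libraries are scaled, was -1.18 on the log2 scale (-1.39 to -0.98). With each start position counted once it was -0.22 with an interval that holds 0 (-0.61 to 0.17).

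**Figure D1:**
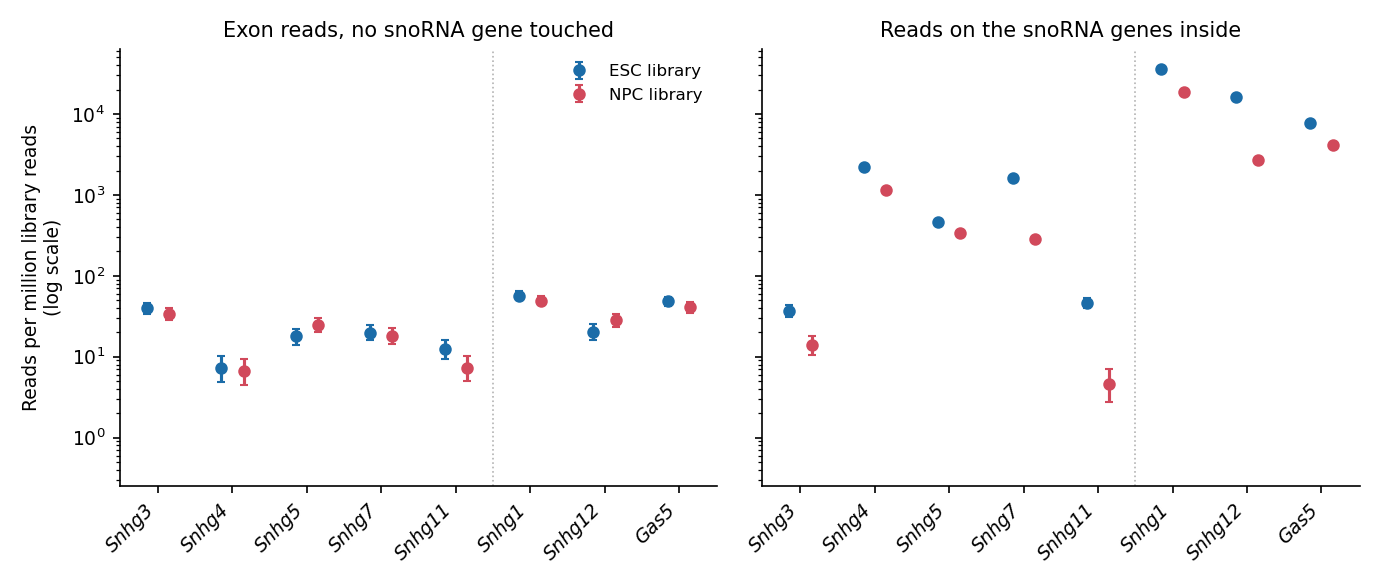
RPM in the ESC and NPC libraries (log axis) over exons (left) and over the snoRNA genes inside each host (right), with exact Poisson 95% intervals. Exon levels of the 5 hosts left of the dotted line lie between 6.59 and 39.8 RPM, and their snoRNA levels between 4.55 and 2193 RPM. *Snhg1*, *Snhg12* and *Gas5* are shown on the right of the line for comparison.

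Per length, *Snhg3* had the highest exon level, which may include unspliced RNA of *Rcc1*, the gene within which it almost wholly lies. In RPM per kilobase of exon (RPKM), the ESC levels were 48.1 (41.2 to 55.9) for *Snhg3*, 17.9 (14.1 to 22.4) for *Snhg5*, 9.07 (7.25 to 11.2) for *Snhg7*, 6.31 (4.28 to 8.95) for *Snhg4* and 1.48 (1.11 to 1.93) for *Snhg11*. *Snhg7* and *Snhg4* were neighbours in this order whose intervals overlap. The NPC order was the same, with 40.7, 24.9, 8.18, 5.73 and 0.867 RPKM, and *Snhg7* and *Snhg4* again had overlapping intervals (6.48 to 10.2 and 3.84 to 8.22). The lengths took in any exon bases in repeats, where the authors removed reads, and reads across junctions may be lost. The order is thus that of listed reads per exon base.

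*Snhg3* (ENSMUSG00000085241.1, processed transcript, chromosome 4, 131903929 to 131909601, minus strand) had 170 exon reads in ESCs (145 to 198) and 148 in NPCs (125 to 174). The log2 ratio was -0.24 (-0.57 to 0.08). Its interval held 0 under 6 of 11 alternatives and lay below 0 under the other 5, namely each start position counted once (-0.53, -1.05 to -0.02), the longest transcript alone (-0.66, -1.28 to -0.06), snoRNA reads kept (-0.66), and scaling by reads on no snoRNA gene (-0.45) or by the median of ratios (-0.61). *Snhg3* lies almost wholly inside *Rcc1*, a coding gene of the same strand that encodes a regulator of chromosome condensation, and 135 of its 986 exon bases are also *Rcc1* exon. Without the reads on these shared bases, 138 ESC and 127 NPC reads were left, with a log2 ratio of -0.16 (-0.52 to 0.20). Most exon reads of *Snhg3* lay in the inner exons. Exon 2, counted from the start, had 94 reads in ESCs and 101 in NPCs, exon 3 had 59 and 36, and exon 4 had 16 and 10. The first exon, of 90 bases, had 1 and 0 reads, and the last, of 107 bases, 0 and 1. The introns had 294 reads in ESCs and 220 in NPCs (log2 ratio -0.46, -0.72 to -0.20). Of these, 93 ESC reads (31.6%) and 34 NPC reads (15.5%) were clipped, that is, listed at less than full length. Intron reads of a sequence found once in the genome numbered 201 in ESCs and 186 in NPCs. These are full-length reads and are closer in number than all intron reads, so the intron ratio rests in part on the clipped reads. No ratio or interval was computed without the clipped reads. Since the introns lie within *Rcc1*, their reads cannot be told apart from unspliced *Rcc1* RNA. Per length the introns were at 15.5 RPKM in ESCs (13.8 to 17.4) and 11.3 in NPCs (9.83 to 12.9), below the exons at 48.1 and 40.7. The part of unspliced *Rcc1* RNA in the exon reads was not tested.

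The snoRNA counts of *Snhg3* are not levels of its snoRNAs. All 149 ESC reads and all 60 NPC reads on *Snora73a* were pieces shorter than 48 nt that started at base 204 of 205, so that they covered 2 bases of the sequence printed above. *Snora73b*, which shares 198 of 205 positions with it, had 8 and 1 such pieces, covering 3 bases. Why no whole read was listed there was not tested. The snoRNA share of *Snhg3* reads, 48% (42.5 to 53.6%) in ESCs and 29.2% (23.1 to 35.9%) in NPCs, is therefore given as a count only, and pooled values without *Snhg3* stand beside those with it.

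*Snhg4* (ENSMUSG00000090430.1, lincRNA, chromosome 18, 35713064 to 35717970, plus strand) had 31 exon reads in ESCs (21.1 to 44.0) and 29 in NPCs (19.4 to 41.6). Its log2 ratio was -0.14 with an interval of -0.92 to 0.64, so a difference of nearly 2-fold was not detectable at this depth. The last exon of 980 bases had 24 and 20 of these reads, and exon 1 had 0 in both libraries. More reads fell in the introns than in the exons, 135 in ESCs and 90 in NPCs, and per length the introns were at 9.24 RPKM in ESCs (7.75 to 10.9) and 5.98 in NPCs (4.81 to 7.35), with intervals that overlap those of the exons at 6.31 and 5.73 RPKM. The intron log2 ratio was -0.63 (-1.03 to -0.23).

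The snoRNAs of *Snhg4* took 99.7% of its exon and snoRNA reads in ESCs (9365 reads) and 99.4% in NPCs (5022 reads). *Snora74a*, an H/ACA guide for the large subunit rRNA, had 7929 and 4710 reads, all of a sequence found once in mm9, and its log2 ratio was -0.79 (-0.85 to -0.74). The other snoRNA gene, listed as SNORA74, had 1436 and 312 reads, a log2 ratio of -2.25 (-2.43 to -2.07). Of those, 1040 ESC and 268 NPC reads had a sequence found once. The snoRNA change was lower than the exon change by a log2 value of -0.80, with an interval that nearly reaches 0 (-1.58 to -0.02). That interval held 0 under all 5 alternatives, among them widening snoRNA genes by 50 bases (-0.75, -1.54 to 0.04).

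*Snhg5* (ENSMUSG00000032424.7, lincRNA, chromosome 9, 88415894 to 88417721, minus strand) was the host whose exons were higher in NPCs. The exon reads numbered 76 in ESCs (59.9 to 95.1) and 109 in NPCs (89.5 to 131). Its NPC level was 1.39 times the ESC level (1.03 to 1.89), a log2 ratio of 0.48 (0.04 to 0.92). All 5 exons had more NPC reads than ESC reads, from 31 and 45 in the first to 9 and 11 in the last. Exon 4, of 67 bases, had 2 reads in ESCs and 12 in NPCs. The introns had 22 and 23 reads, at 7.45 RPKM in ESCs beside 17.9 RPKM over the exons. The exon interval of *Snhg5* held 0 when each start position was counted once (0.12, -0.51 to 0.77), when snoRNA genes were widened (0.42, -0.05 to 0.90), and when the libraries were scaled by reads on no snoRNA gene (0.27, -0.17 to 0.71) or by the median of ratios (0.11, -0.32 to 0.56).

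The SNORD50 genes of *Snhg5* had 1969 reads in ESCs and 1504 in NPCs together, a log2 ratio of -0.43 (-0.53 to -0.33). Copy 1 had 1900 and 1391 reads, and copy 2 had 69 and 113, so that the ratio was -0.49 for copy 1 and 0.67 (0.22 to 1.12) for copy 2. Of the reads on copy 1, 87.9% in ESCs and 85.2% in NPCs started at base 2 and ended just before base 50, where the copies differ. Over both copies, 8 ESC reads and 6 NPC reads had a sequence that occurs once in mm9. The 48 bases from base 2 occur at 4 places in mm9, all on chromosome 9, and the others lie in SNORD50 genes within the lincRNA genes 9330159M07Rik and Gm17683. Those places had 1990 ESC and 1557 NPC reads with this start, and over all 4 places the log2 ratio was -0.43 (-0.51 to -0.36). How the reads were divided between copies, and so the opposite direction of copy 2, was not tested. Relative to the exons of *Snhg5* the snoRNA ratio was -0.91 on the log2 scale (-1.36 to -0.46), and -0.04 (-1.21 to 1.14) with each start position counted once.

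*Snhg7* (ENSMUSG00000091299.1, lincRNA, chromosome 2, 26492697 to 26495764, minus strand) had nearly equal exon counts and a large difference in snoRNA reads. The exons had 85 reads in ESCs (67.9 to 105) and 79 in NPCs (62.5 to 98.5), a log2 ratio of -0.15 (-0.61 to 0.31). The snoRNAs had 6997 and 1266, which is 5.69 times as much in ESCs (5.36 to 6.05). *Snora17* carried 6953 and 1253 of these reads, and *Snora43*, a second H/ACA guide, 44 and 13 (log2 ratios -2.51 and -1.80). The start at base 2 of *Snora17* had 51.5% of its reads in ESCs and 61.2% in NPCs. Relative to the exons, the snoRNA ratio was -2.36 on the log2 scale (-2.83 to -1.89), so the number of snoRNA reads per exon read was 82.3 in ESCs and 16 in NPCs. With each start position counted once it was -0.48, with an interval that holds 0 (-1.3 to 0.39). Both snoRNA genes lie wholly in exon 3, an annotated exon of 2236 bases that reads through them. Without leaving out snoRNA reads the exon ratio would have been -2.44, and its interval also lay below 0 by the position of the 5′ end (-0.65, -1.01 to -0.29) and under scaling by the median of ratios (-0.51, -0.97 to -0.05). The introns had 12 reads in ESCs and 27 in NPCs, the reverse of the snoRNA direction (log2 ratio 1.13, 0.10 to 2.24).

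*Snhg11* (ENSMUSG00000044349.8, typed as protein coding in GENCODE M1, chromosome 2, 158201374 to 158211881, plus strand) had the lowest level per length in both libraries. Its exons had 53 reads in ESCs (39.7 to 69.3) and 32 in NPCs (21.9 to 45.2), a log2 ratio of -0.77 (-1.45 to -0.11). The second exon, which also holds a SNORA71 gene, had 21 and 9 reads outside it, and the last exon of 5207 bases had 24 and 19. With the exons of the longest transcript alone, the ratio was -0.53 with an interval that holds 0 (-1.33 to 0.25), as it does with each start position counted once (-0.70, -1.44 to 0.03), and by the position of the 5′ end it was -1.46 (-2.08 to -0.88). The introns had 11 reads in ESCs and 4 in NPCs.

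The SNORA71 genes of *Snhg11* had 199 ESC reads and 20 NPC reads, and were 10.2 times as high in ESCs (6.46 to 17.1). They share a name but just 56 of 133 positions (42.1%). The first from the host start, printed above, had 188 and 17 reads (log2 ratio -3.51, -4.32 to -2.79), and the second had 11 and 3 (-1.92, -4.40 to 0.00). All these reads had a sequence found once in mm9. Snhg11 snoRNAs made up 79.0% (73.4 to 83.8%) of its exon and snoRNA reads in ESCs and 38.5% (25.3 to 53.0%) in NPCs. The snoRNA ratio relative to the exon ratio was -2.59 on the log2 scale (-3.58 to -1.6). With each start position counted once, the intervals of the snoRNA ratio (-1.27, -2.70 to 0.04) and of the relative change (-0.57, -2.19 to 0.96) hold 0.

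**Figure D2:**
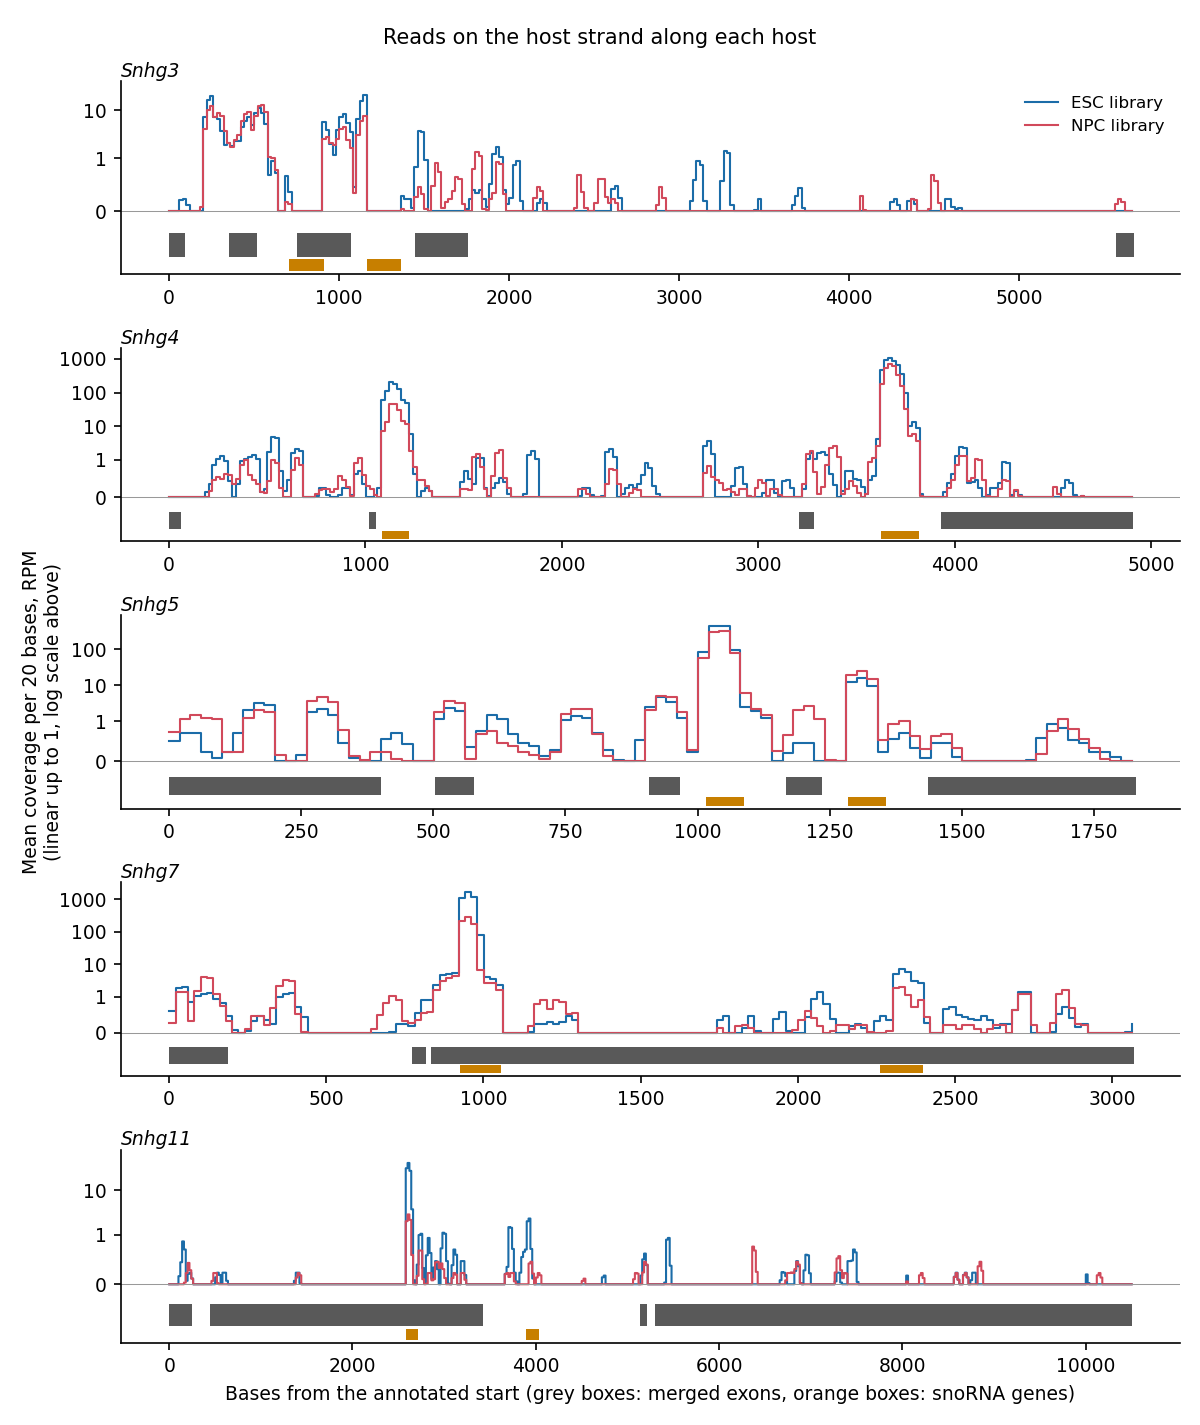
Mean coverage in RPM per 20 bases (linear up to 1, log scale above) on the host strand of the ESC and NPC libraries, by distance in bases from the annotated start. Grey boxes are merged exons and orange boxes snoRNA genes. The peaks lie on the snoRNA genes in *Snhg4*, *Snhg5*, *Snhg7* and *Snhg11*, while in *Snhg3* the coverage lies around them and nearly stops at their edges.

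The hosts without an annotated gene had snoRNA reads that were also higher in ESCs. AC102570.1, in the place of *Snord87* of *Snhg6*, had 7903 reads in ESCs (7730 to 8079) and 4902 in NPCs (4766 to 5041), a log2 ratio of -0.73 (-0.78 to -0.68). Of these, 95.1% in ESCs and 90.9% in NPCs started at base 6, which lies 5 bases before box C in the sequence above. No exon count was made for *Snhg6*. AC124005.1, in the place of *Snora24* of *Snhg8*, had 1272 and 922 reads, a log2 ratio of -0.51 (-0.63 to -0.38). The RefSeq promoter of *Snhg8* was found once in mm9, and the span of its RefSeq length of 785 bases from that start, introns included (chr3:123210470-123211254, minus strand), had 30 reads in ESCs (20.2 to 42.8) and 21 in NPCs (13.0 to 32.1) outside the snoRNA. The log2 ratio of the span was -0.56 (-1.44 to 0.30), and the snoRNA ratio relative to it was 0.05 (-0.81 to 0.94). The relative change of *Snhg8* was thus near 0, with an interval of nearly 2-fold on both sides. It rests on a span with introns, unlike the exon counts of the placed hosts. Its interval holds the value of *Snhg4* (-0.80) but not those of the other placed hosts.

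**Figure D3:**
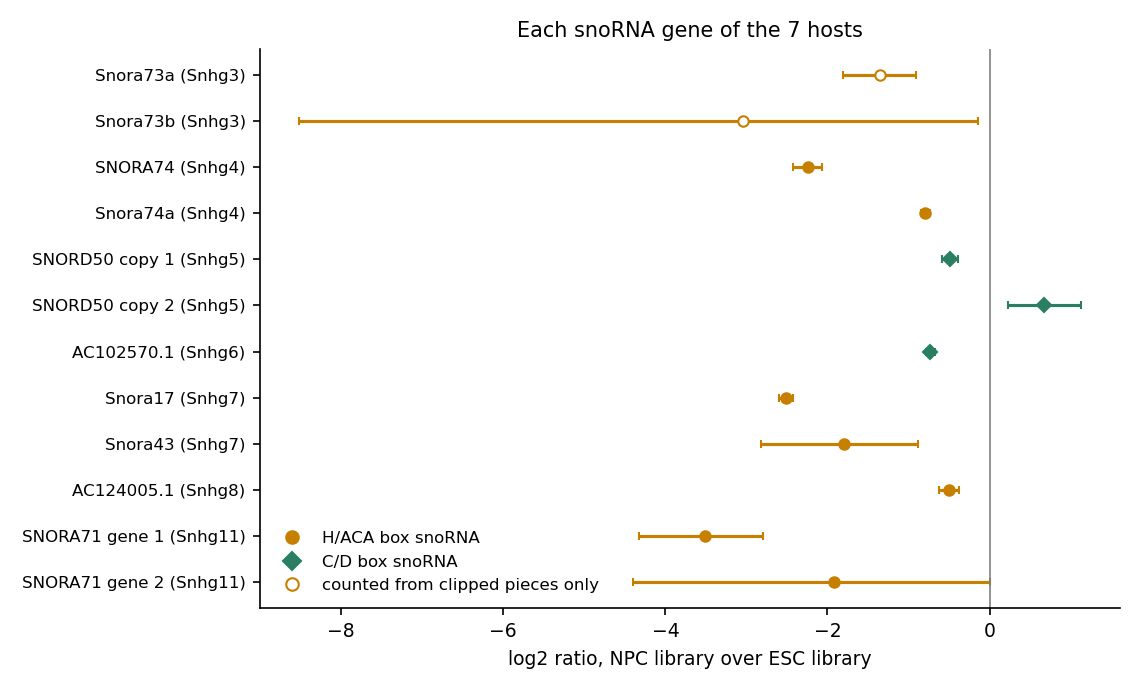
Log2 ratio of NPC to ESC reads for each snoRNA gene of the 7 hosts, with conditional binomial 95% intervals of counting error. Box H/ACA genes are circles, box C/D genes diamonds, and open circles mark counts that rest on clipped pieces. Ratios run from -3.51 for the first SNORA71 gene (gene 1 in the plot) to 0.67 for SNORD50 copy 2, and 11 of 12 are below 0. Without the *Snora73* pair, whose counts are not levels, 9 of 10 are below 0, beside 75.2% of the 355 snoRNA genes of the annotation with at least 10 reads.

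The same comparison in the hosts most like these gave relative changes of -0.73 (-1.0 to -0.46) for *Snhg1*, -3.05 (-3.46 to -2.64) for *Snhg12* and -0.67 (-0.96 to -0.37) for *Gas5*, with exon ratios of -0.19, 0.47 and -0.24. Merged exons in GENCODE M1 cover the whole of *Snhg1*, so no intron was left to count there. In *Gas5* all exon reads lay in a merged exon of 3611 bases that holds its 9 snoRNA genes. Exon 2 of *Snhg12*, of 1396 bases, holds 3 of its 4 snoRNA genes. The exon counts of these hosts thus take in bases between snoRNA genes, unlike those of *Snhg4* and *Snhg5*, whose exons touch no snoRNA gene. Protein-coding hosts showed the same side. Of the 153 with at least 10 exon reads and at least 10 snoRNA reads in both libraries together, and none of these counts at 0, 133 (86.9%) had a lower snoRNA ratio than exon ratio, and the median of the difference was -1.33 (quartiles -2.01 and -0.66). The values of -0.80 to -2.59 in *Snhg4*, *Snhg5*, *Snhg7* and *Snhg11* fall on both sides of that median. The median snoRNA share of reads in the coding hosts was 64.1% in ESCs and 35.4% in NPCs. Among the 5 placed hosts the shares ran from 48% in *Snhg3* to 99.7% in *Snhg4* in ESCs, and from 29.2% to 99.4% in the same hosts in NPCs. Their pooled reads, most of them from *Snhg4* and *Snhg7*, had shares of 97.8% (97.6 to 98.0%) and 95.2% (94.7 to 95.7%). Without *Snhg3* the pooled shares were 98.7% and 96.9% and the relative change -1.27 (-1.53 to -1.01).

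**Figure D4:**
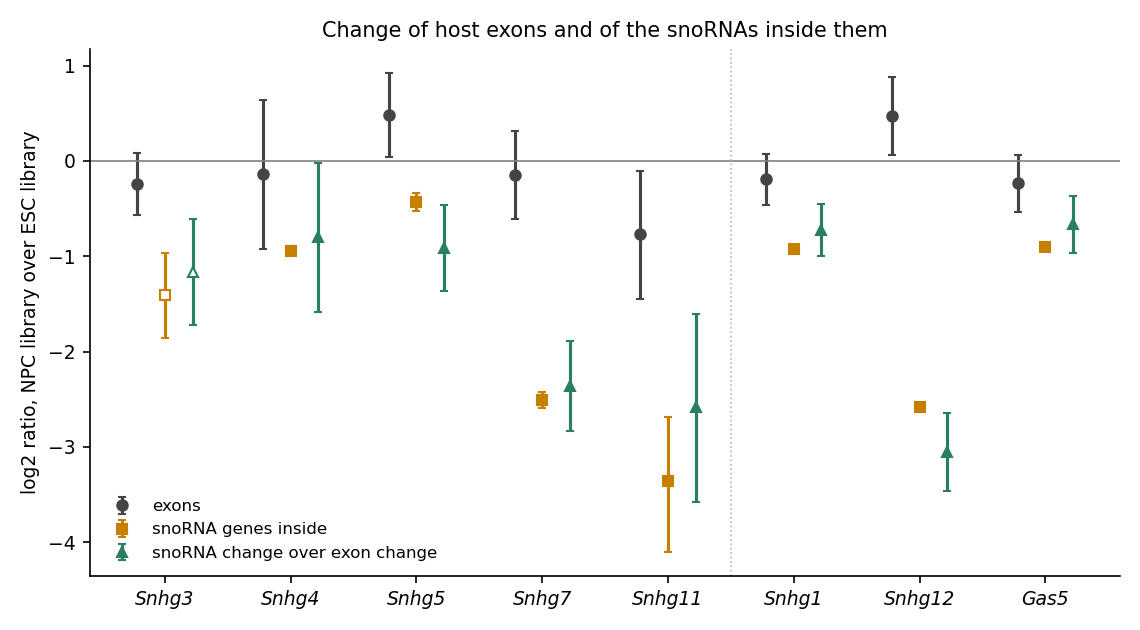
Log2 ratios of NPC to ESC for exon reads, for reads on the snoRNA genes inside, and for the snoRNA ratio divided by the exon ratio, with 95% intervals of counting error. Open symbols in *Snhg3* mark values that rest on clipped pieces. In all 8 hosts shown the snoRNA ratio lies below the exon ratio, as in 86.9% of the 153 protein-coding hosts. The 8 include *Snhg3*, whose snoRNA counts are not levels. *Snhg8*, read over a span with introns, is not shown and was at 0.05.

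Among all genes the exon ratios of these hosts lay mostly in the lower part. With 1 read added in each library, 25.1% of the 14503 genes with at least 10 reads were more than 2-fold higher in NPCs and 12.0% more than 2-fold lower, and 0 of the 5 placed hosts were past 2-fold in either direction. Scaling by the median of ratios over genes turned the 3642 genes above and 1741 below into 2258 and 2633, and the count of hosts into 1 below and 0 above. The median log2 ratio of all genes was 0.36, and that of the hosts -0.15. Relative to the median gene, *Snhg5* was at 0.11, *Snhg4* at -0.50, *Snhg7* at -0.51, *Snhg3* at -0.60 and *Snhg11* at -1.12. Of all genes, 54.7% had a lower ratio than *Snhg5*, 31.5% than *Snhg4*, 31.2% than *Snhg7*, 28.1% than *Snhg3* and 15.9% than *Snhg11*. Scaled by that median, the exon ratio of the 5 hosts together was -0.47, and that of *Snhg5* stayed above 0 at 0.11.

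**Figure D5:**
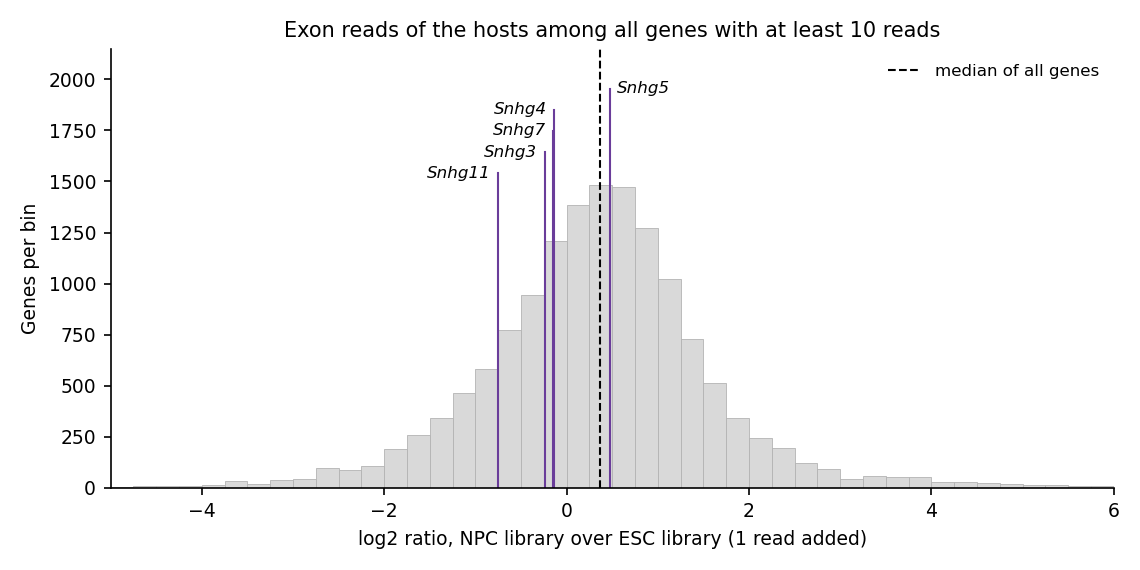
Number of genes by log2 ratio of NPC to ESC exon reads (bins of 0.25, 1 read added), for the 14503 genes with at least 10 reads. Purple lines mark the 5 placed hosts, of which *Snhg5* alone lies to the right of the dashed median of all genes at 0.36. The axis ends at -5 and 6.

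Of 48 noncoding genes with at least 100 exon reads, the 5 whose ratio was nearest to the median of the hosts were 9430008C03Rik (-0.16), *Snhg1* (-0.19), Gm15500 (-0.08), *Gas5* (-0.24) and Gm15430 (-0.01). The likeness is the distance of log2 ratios between these 2 libraries. Of 14 genes listed as other noncoding hosts, 7 are in the annotation and 6 had at least 10 reads, with a median of 0.36. *Mirg*, from the imprinted cluster that also holds *Rian* and *Meg3*, was the listed gene past 2-fold, with 38 reads in ESCs and 86 in NPCs. The list was set by name, and snoRNAs inside *Mirg*, *Rian* and *Meg3* were not counted. *Mirg* is thus not shown here to hold a snoRNA.

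The genes for the proteins of both particle classes had ratios on both sides of 0. Of the 5 box C/D proteins, 1 was more than 2-fold higher in NPCs and 0 lower, with a median log2 ratio of 0.28 beside 0.36 for all genes. *Nop58*, a core protein, had 340 reads in ESCs and 737 in NPCs (log2 ratio 1.07, 0.89 to 1.26), and *Fbl*, the methyltransferase, 304 and 424 (0.44, 0.22 to 0.65). *Nhp2l1*, which binds the kink-turn of the RNA, was at -0.20 (-0.56 to 0.15), and *Rrp9*, which belongs to the U3 particle, at -0.62 (-0.95 to -0.30). Of the 6 box H/ACA proteins, 1 was more than 2-fold lower and 0 higher, with a median of -0.15. *Nop10*, a core protein, had 195 and 85 reads (-1.24, -1.63 to -0.87), and *Dkc1*, the pseudouridine synthase, 570 and 307 (-0.94, -1.14 to -0.73). *Gar1*, also of the core, was at 0.92 (0.49 to 1.35), and the assembly factor *Naf1* at 0.98 (0.62 to 1.34).

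Of the 6 genes of snoRNP assembly, *Ruvbl2* was the one past 2-fold, with 1052 reads in ESCs and 435 in NPCs (log2 ratio -1.32, -1.48 to -1.15), while its partner ATPase *Ruvbl1* had 130 and 207 (0.63, 0.31 to 0.96). *Znhit3* was at 0.78 (0.23 to 1.35) and *Nufip1* at -0.40 (-0.71 to -0.10), and the median of the list was 0.49. All 9 genes of intron release and end trimming had a log2 ratio above 0, as had 63.8% of all genes tested, with a median of 0.35 that is close to that of all genes. *Exosc10*, a nuclease of the nuclear exosome, was past 2-fold (92 and 191 reads) and *Dis3*, its other nuclease, at 0.67, while *Exosc3* and *Papd5* were at 0.12 and 0.16. In nonsense-mediated decay 7 of 8 genes were above 0, beside the 63.8% of all genes, and 0 past 2-fold, with a median of 0.57. *Smg5* and the endonuclease *Smg6* were at 0.74 and 0.68, and the kinase *Smg1* at 0.29. Among the 232 protein-coding hosts with at least 10 reads, 59 were more than 2-fold higher and 18 lower in NPCs, and the median was 0.34. *Robo2* (3 and 111 reads) and *Rbmx* (10 and 98) had the highest ratios of those with at least 50 reads, and *Fry* (130 and 30) and *Tmem180* (157 and 49) the lowest.

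The host starts were read for a terminal oligopyrimidine, a C followed by 4 bases that are each C or T, read on the host strand only and known from genes of the translation machinery and from many snoRNA hosts. It begins at the annotated start of *Snhg4* and of *Snhg7*, 2 of the 5 placed hosts, as for 2.15% of the 14503 genes. Within 20 bases of the start it was found in *Snhg3*, *Snhg4*, *Snhg5* and *Snhg7* and not in *Snhg11*, but 48.8% of all genes hold it there. The windows from 20 bases before the start are shown with the match in capitals. For *Snhg7* the capitals join the match at the start with an overlapping match that begins 1 base before it.
Snhg3 (chr4:131909562-131909621, minus strand): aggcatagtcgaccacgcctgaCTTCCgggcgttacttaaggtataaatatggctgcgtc
Snhg5 (chr9:88417682-88417741, minus strand): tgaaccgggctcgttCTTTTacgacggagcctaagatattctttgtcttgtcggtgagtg
Snhg7 (chr2:26495725-26495784, minus strand): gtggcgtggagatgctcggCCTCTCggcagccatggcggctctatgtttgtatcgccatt
Snhg11 (chr2:158201354-158201413, plus strand): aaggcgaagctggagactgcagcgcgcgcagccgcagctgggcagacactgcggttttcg
Few reads began near these starts. Within 100 bases of the annotated start there were 15 reads in ESCs and 23 in NPCs for *Snhg7*, 5 and 11 for *Snhg5*, 1 and 1 for *Snhg3*, and 0 in both libraries for *Snhg4* and *Snhg11*, where a count of 0 allows up to 0.702 RPM in ESCs and 0.682 RPM in NPCs.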

How the data were processed

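The authors removed poly(A) RNA, depleted rRNA, sequenced strand-specifically on SOLiD, placed reads on mm9 by Bowtie (the best place, unique or not), and filtered mitochondrial, ribosomal and Repeat Masker reads. They deposited the place and strand of each read, with 48 nt of sequence. No spliced alignment is described, so reads across exon junctions may be lost. Clipped reads made up 3.77% in ESCs and 4.23% in NPCs.

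Here a read counted for a region it overlapped by 1 base on its strand. Exon reads overlap merged GENCODE M1 exons and no snoRNA gene, intron reads neither. RPM uses the library total. Counts have exact Poisson, shares Clopper-Pearson and ratios conditional binomial 95% intervals. A count of 0 was taken to allow 3 reads, a set floor that is lower than the exact Poisson upper bound. Ratios over all genes and lists add 1 read, single ratios none. Members, lists and rules were chosen with earlier results of these data known. Genes were named by rule (all hosts and their snoRNAs, and in each list the 2 highest and 2 lowest with at least 50 reads). *Sox3*, *Fabp7*, *Pax6*, *Rcc1*, the *Snhg8* span, the SNORD50 places and the fibroblast sum without *Thy1* were added after their values were seen. Some genes that fall under this rule are not reported here. Sequences are from mm9 (NCBIM37), and RefSeq tables (GRCm38.p6) gave names, neighbours and the *Snhg8* promoter. The counts and intervals were tested on simulated data. Tools were numba 0.67.0, SciPy 1.17.1, NumPy 2.4.6, matplotlib 3.10.9 and Python 3.11.15.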

Additional observations from a re-analysis of the deposited data

How the results depend on the processing

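No paired analysis was possible because there is 1 library per cell type, and no replicate could be left out. For the 5 placed hosts pooled, the log2 values for exons, for snoRNAs and for the snoRNA ratio relative to the exon ratio were below 0 under all alternatives run, but the exon interval held 0 in the reported setting and lay below 0 under 5 of 12 alternatives. Counting each start position once gave -0.40 for exons, -0.62 for snoRNAs, shares of 54.4% in ESCs and 50.6% in NPCs, and a relative change of -0.22 whose interval holds 0 (-0.61 to 0.17). Under it the relative change of *Snhg3* was 0.26 and the snoRNA ratio of *Snhg5* was 0.082 on the log2 scale, both turned in direction. Short snoRNAs offer few start positions, so this setting limits their counts by its own construction. Placing reads by their 5′ end gave -0.38 for exons, an ESC share of 97.3% and a relative change of -0.91. Reads of a sequence found once gave -1.41 for snoRNAs and an NPC share of 94.3%. Widening snoRNA genes by 50 bases gave shares of 98.0% and 95.7%. Scaling by reads on no snoRNA gene gave -0.31 for exons and -1.50 for snoRNAs, and scaling by the median of ratios -0.47 and -1.65. Keeping snoRNA reads in exons gave -2.20. Leaving out *Snhg3*, chosen after seeing the data, gave shares of 98.7% and 96.9%. Of all genes, 2258 were more than 2-fold above and 2633 below under median scaling. With each start counted once 1713 of 14014 genes tested were above (12.2%), and with at least 50 reads 963 of 10845 were below (8.88%). Reads listed at 48 nt alone, also chosen after seeing the data, moved no pooled value beyond its counting interval. Exon counts of 29 to 170 reads limit the precision, and PCR copies cannot be separated from repeated molecules.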
